A study of Homo sapiens with 4 samples.

Results

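The 33 genes described here encode the constitutive subunits of the 26S proteasome together with its maturation factor. They are the 7 alpha and 7 beta subunits of the 20S core, the 6 ATPases and 4 non-ATPase subunits of the 19S base, 8 subunits of the 19S lid, and POMP. They were chosen by name, as the genes whose Ensembl identifiers map to these subunits in GENCODE release 29, and make up 33 of the 58735 genes measured. Earlier results of these data were known when this set was chosen. Averaged across the libraries, 31 of the 33 genes reached 1 FPKM, the minimum used for testing, as did 12296 genes in all. FPKM counts fragments for each kilobase of a gene's exons, after scaling by a factor for each library.

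RNA was sequenced from MOLM13, an established human line of acute myeloid leukaemia in which MLL is fused to AF9. The groups were cells given SD70, cells given MI-503, cells given both agents (the combination) and cells given DMSO, the vehicle, all for 12 h. SD70 is a small molecule described as inhibiting KDM4C, a histone demethylase. MI-503 is a menin inhibitor that keeps menin off MLL. Each group was 1 library of 1 cell line, the sources used here give no doses, and no group had a replicate.

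The proteasome degrades proteins that carry ubiquitin chains. Its barrel-shaped 20S core holds the protease sites on the inner faces of the beta rings, between outer alpha rings that gate the entrance. The 19S particle binds the chain, removes it and threads the unfolded protein into the core, with ATPases in its base and a deubiquitinase in its lid. Blood cancers of several kinds depend on this capacity, and the proteasome is a drug target in multiple myeloma.

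The libraries held 14695753 reads for SD70, 15937390 for MI-503, 15093444 for the combination and 15550915 for DMSO. The share of reads on protein-coding genes was 95.99% in SD70, 96.92% in MI-503, 96.03% in the combination and 97.09% in DMSO. The FPKM of all genes summed to 293684 in SD70, 322134 in MI-503, 304320 in the combination and 316714 in DMSO. Both measures were lower in the libraries with SD70. In a gene of 1 kb, 1 read stood for 0.0646 FPKM in SD70, 0.0641 FPKM in MI-503, 0.0647 FPKM in the combination and 0.0662 FPKM in DMSO. SD70 thus had fewer reads than DMSO and also less FPKM per read, so this scaling does not follow the read totals given here. The 5 myeloid markers summed to 435 FPKM in SD70, 470.0 FPKM in MI-503, 519.8 FPKM in the combination and 304 FPKM in DMSO. This sum was higher in all 3 treated libraries than in DMSO, as was each marker but MPO. LYZ, the largest, had 237 FPKM in SD70, 281 FPKM in MI-503, 329 FPKM in the combination and 151 FPKM in DMSO. MPO had 6.64 FPKM in SD70, 16.8 FPKM in MI-503, 10.5 FPKM in the combination and 10.3 FPKM in DMSO. The part of these markers in the results was not tested. Of 10 markers of other cell types 6 were at 0 in every library, and no single one exceeded 1.31 FPKM.

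SD70 was accompanied by lower RNA for most of the proteasome. Of the 31 genes above the minimum, 23 were at least 1.5-fold lower in SD70 than in DMSO and 0 were at least 1.5-fold higher, where 18.8% of all genes tested were that much lower and 14.6% that much higher. Their median log2 fold was -0.74, with a range of -1.60 to -0.01, against a median of -0.07 over all genes tested. These folds are differences of log2(FPKM + 1), and 1.5-fold is a size chosen here, since a pair of single libraries allows no test. In bulk RNA, fewer cells of a type and less RNA per cell cannot be told apart.

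The level of a typical subunit shows the same difference. The median over the 31 genes was 18.2 FPKM in SD70, 28.0 FPKM in MI-503, 18.8 FPKM in the combination and 37.0 FPKM in DMSO. Both libraries with SD70 lay below both libraries without it in 30 of the 31 genes, an arrangement found in 42.0% of all genes tested, and PSMD4 was the exception. The reverse arrangement held for 0 of the 31 genes and for 32.1% of all genes tested. With every library scaled to the same FPKM total, 18 of the 31 genes were still at least 1.5-fold lower in SD70 than in DMSO. Of the 12296 genes tested, 1836 were that much lower with this scaling. The part of the lower protein-coding share of reads in this result was not tested.

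**Figure D1:**
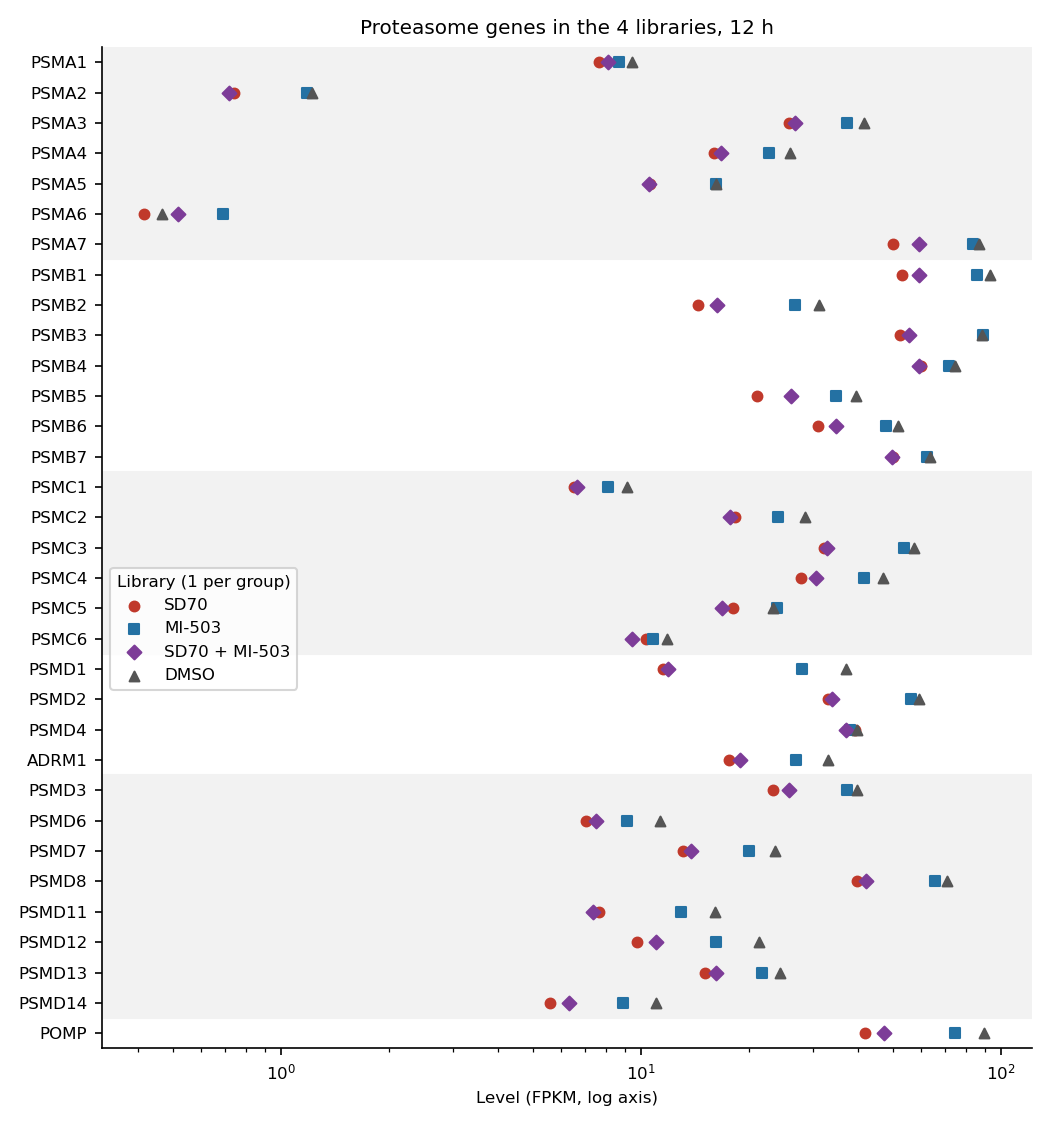
Level of each proteasome gene in FPKM on a log axis, with 1 point per library for SD70, MI-503, SD70 + MI-503 and DMSO, and coinciding points drawn over each other. The libraries with SD70 lie to the left of those without it for every gene with a mean of 1 FPKM or more but PSMD4.

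A test across libraries was possible only by treating the 2 libraries with an agent as a pair against the 2 without it, with the other agent as a second term. This additive limma fit over 12296 genes had 1 residual degree of freedom, the departure from additivity, which it takes as error. By this fit 23 of the 31 genes fell with SD70 and 0 rose at an adjusted p under 0.05, while 14.7% of all genes tested fell and 7.86% rose. The median change over the 31 genes was -0.64 on the log2 scale, against -0.05 over all genes tested. "Fell" is used below only for genes past this test, and for an SD70 term that compares the libraries with SD70 with those without it. With all libraries scaled to the same FPKM total 15 of the 31 genes passed, and 2363 of the 12296 genes tested passed in either direction. With a variance that does not follow the mean level 0 passed, the smallest adjusted p then being 0.0514.

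**Figure D2:**
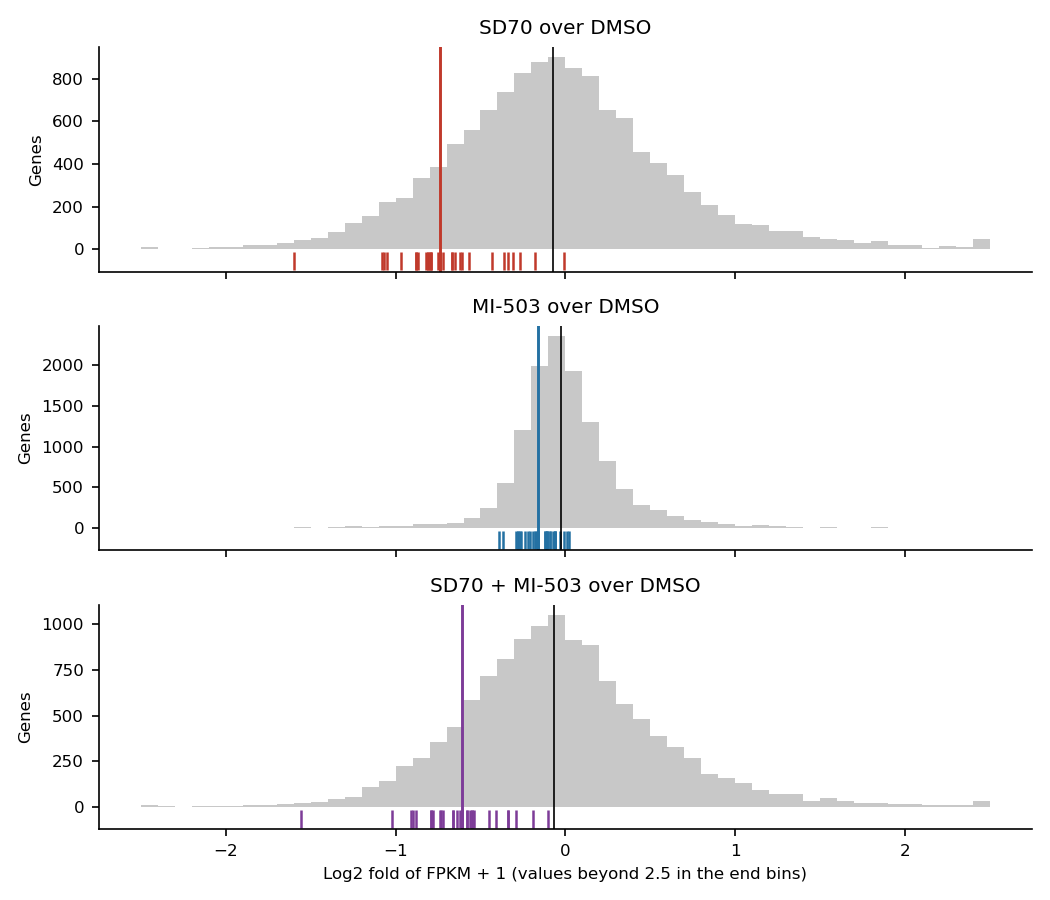
Distribution of log2 folds on the log2(FPKM + 1) scale for all genes tested and for the proteasome genes, for SD70, MI-503 and SD70 + MI-503 against DMSO, with grey bars for all genes, coloured ticks for single proteasome genes, a coloured line at their median and a black line at that of all genes. The median of the proteasome genes is -0.74 for SD70, -0.16 for MI-503 and -0.61 for SD70 + MI-503.

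Since most of these genes fell with SD70, promoters are shown for the gene with the lowest fold (PSMD1), for POMP, also among the lowest, for the tested gene with the highest fold among those with a promoter entry (PSMC6), and for 3 genes that carry the sequence elements looked for. RefSeq promoters of GRCh38.p14 were matched for 28 of the 33 genes, each searched over the 250 bases before the start that RefSeq gives. RefSeq starts differ from the GENCODE gene spans used for the levels, so that 10 of the 28 windows lie wholly inside the GENCODE gene, 16 partly and 2 outside it. PSMA7, PSMB1, PSMB6, PSMB7 and PSMD4 had no promoter entry in the source used and were not searched. The last 120 bases before the RefSeq start are given for 6 genes, 5′ to 3′ on the gene's strand. Capitals mark matches to TGACNNNGC, CCAAT or CCGGAAG on either strand.

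PSMD1 promoter, chr2:231056747-231056866, plus strand: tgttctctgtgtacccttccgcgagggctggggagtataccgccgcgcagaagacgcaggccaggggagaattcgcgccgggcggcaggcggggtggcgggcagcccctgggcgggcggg

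PSMB3 promoter, chr17:38752621-38752740, plus strand: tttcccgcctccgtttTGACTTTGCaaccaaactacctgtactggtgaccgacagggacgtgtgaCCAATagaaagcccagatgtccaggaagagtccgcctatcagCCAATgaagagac

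PSMA5 promoter, chr1:109426449-109426568, minus strand: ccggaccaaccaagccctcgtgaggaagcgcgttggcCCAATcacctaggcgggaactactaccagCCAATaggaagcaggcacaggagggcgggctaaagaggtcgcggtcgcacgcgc

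PSMD3 promoter, chr17:39980687-39980806, plus strand: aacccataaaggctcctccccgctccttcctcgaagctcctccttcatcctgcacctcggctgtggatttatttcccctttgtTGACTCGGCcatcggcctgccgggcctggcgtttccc

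POMP promoter, chr13:28659010-28659129, plus strand: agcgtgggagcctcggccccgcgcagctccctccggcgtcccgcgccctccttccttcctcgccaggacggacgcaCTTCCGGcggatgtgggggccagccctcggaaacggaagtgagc

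PSMC6 promoter, chr14:52707080-52707199, plus strand: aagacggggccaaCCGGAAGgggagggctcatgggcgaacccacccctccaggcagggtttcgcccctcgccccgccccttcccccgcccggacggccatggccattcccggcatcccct

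The antioxidant response element TGACNNNGC, the binding sequence of NFE2L1 and NFE2L2 with small MAF proteins, was matched in 14.3% of the 28 promoters and in 12.7% of the promoters of tested genes. Those with a match were PSMB3, ADRM1, PSMD3 and PSMD12. The CCAAT box, bound by NF-Y, was matched in 50% of the 28 promoters against 35.7%, and its reverse complement is ATTGG. The heat shock element, alternating GAA, TTC and GAA units set 2 bases apart, had 0 matches in the 28 promoters and was in 0.271% of those of tested genes. The ETS core CCGGAAG, added after the promoters had been seen, was matched in 25% against 18.2%. In PSMD14 a CCAAT and an ATTGG overlap. A match is a description of the letters in this window.

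The alpha subunits form the outer rings of the core. PSMA7 had 50.0 FPKM in SD70, 83.3 FPKM in MI-503, 59.2 FPKM in the combination and 87.1 FPKM in DMSO. It fell with SD70 by 0.64 ± 0.13 on the log2 scale (limma SE, adjusted p = 0.0301). Its level in each SD70 library was below that in both others, and the combination stood above SD70 alone with a ratio of 1.18 (95% counting interval 1.10 to 1.27).

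PSMA3 had 25.8 FPKM in SD70, 37.3 FPKM in MI-503, 26.8 FPKM in the combination and 41.7 FPKM in DMSO. PSMA4 had 15.9 FPKM in SD70, 22.7 FPKM in MI-503, 16.7 FPKM in the combination and 26.0 FPKM in DMSO. PSMA5, whose promoter carries CCAAT boxes, had 10.6 FPKM in SD70, 16.1 FPKM in MI-503, 10.5 FPKM in the combination and 16.2 FPKM in DMSO. All 3 fell with SD70, with adjusted p of 0.0355 for PSMA3, 0.0408 for PSMA4 and 0.0326 for PSMA5 (limma), so 4 of the 5 alpha genes tested fell. For PSMA5 the MI-503 library was level with DMSO, with a ratio of 0.994 (0.922 to 1.07).

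PSMA1 had 7.62 FPKM in SD70, 8.66 FPKM in MI-503, 8.11 FPKM in the combination and 9.42 FPKM in DMSO. It did not pass the test (limma adjusted p = 0.328). The other two alpha genes stayed under the minimum: PSMA2 had 0.739 FPKM in SD70, 1.18 FPKM in MI-503, 0.715 FPKM in the combination and 1.22 FPKM in DMSO. PSMA6 had 0.417 FPKM in SD70, 0.689 FPKM in MI-503, 0.517 FPKM in the combination and 0.468 FPKM in DMSO, on 42 reads in SD70 and 46 reads in DMSO. These 3 genes share coding sequence with another annotated gene on the same strand, over 88.6% of the coding bases of PSMA1, 100% of those of PSMA2 and 90.0% of those of PSMA6. For the other 30 genes the share is 0. How the authors' counting treated reads in such sequence is not given in the sources used here, its part in the low levels was not tested, and the 3 levels are uncertain.

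The beta subunits include the 3 protease sites, and all 7 were tested. PSMB5, which carries the chymotrypsin-like site bound by bortezomib, had 21.0 FPKM in SD70, 34.7 FPKM in MI-503, 26.1 FPKM in the combination and 39.6 FPKM in DMSO. It fell with SD70 by 0.64 ± 0.16 on the log2 scale (limma SE, adjusted p = 0.0443). The ratio of SD70 to DMSO was 0.531 (95% counting interval 0.479 to 0.589). The combination stood above SD70 alone, with a ratio of 1.24 (1.11 to 1.39), the highest among the 31 genes.

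PSMB6, the caspase-like subunit, had 31.0 FPKM in SD70, 48.0 FPKM in MI-503, 34.7 FPKM in the combination and 51.7 FPKM in DMSO. PSMB6 fell with SD70 (limma adjusted p = 0.0349). PSMB7, the trypsin-like subunit, had 50.0 FPKM in SD70, 62.3 FPKM in MI-503, 49.9 FPKM in the combination and 63.5 FPKM in DMSO. PSMB7 did not pass (limma adjusted p = 0.0903), and its ratio of SD70 to DMSO was 0.788 (0.734 to 0.846). Of the 3 protease subunits, 2 therefore fell by this test, and whether PSMB7 differed from them was not tested.

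Among the beta subunits without a protease site, PSMB2 had the largest difference. PSMB2 had 14.4 FPKM in SD70, 26.8 FPKM in MI-503, 16.3 FPKM in the combination and 31.3 FPKM in DMSO. It fell with SD70 by 0.88 ± 0.15 on the log2 scale (limma SE, adjusted p = 0.0242), and its ratio of SD70 to DMSO was 0.461 (0.428 to 0.496). PSMB1 had 53.1 FPKM in SD70, 85.8 FPKM in MI-503, 59.1 FPKM in the combination and 93.0 FPKM in DMSO. PSMB3 had 52.5 FPKM in SD70, 89.2 FPKM in MI-503, 55.6 FPKM in the combination and 88.7 FPKM in DMSO. Both PSMB1 and PSMB3 fell with SD70 (limma adjusted p = 0.0274 and 0.0229), and PSMB3 had nearly equal levels in MI-503 and DMSO. PSMB4 had 60.1 FPKM in SD70, 71.5 FPKM in MI-503, 59.0 FPKM in the combination and 74.7 FPKM in DMSO, and did not pass (limma adjusted p = 0.112). In all, 5 of the 7 beta genes fell.

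The 6 ATPases of the base unfold the substrate. PSMC3 had 32.2 FPKM in SD70, 53.9 FPKM in MI-503, 32.8 FPKM in the combination and 57.4 FPKM in DMSO. PSMC4 had 27.9 FPKM in SD70, 41.7 FPKM in MI-503, 30.6 FPKM in the combination and 47.1 FPKM in DMSO. PSMC2 had 18.2 FPKM in SD70, 24.0 FPKM in MI-503, 17.7 FPKM in the combination and 28.5 FPKM in DMSO. These 3 fell with SD70, with limma adjusted p of 0.0229 for PSMC3, 0.0380 for PSMC4 and 0.0430 for PSMC2.

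The other 3 ATPases did not pass. PSMC5 had 18.0 FPKM in SD70, 23.8 FPKM in MI-503, 16.8 FPKM in the combination and 23.3 FPKM in DMSO (limma adjusted p = 0.0643). PSMC1 had 6.50 FPKM in SD70, 8.09 FPKM in MI-503, 6.63 FPKM in the combination and 9.13 FPKM in DMSO (limma adjusted p = 0.103). PSMC6 had 10.3 FPKM in SD70, 10.8 FPKM in MI-503, 9.46 FPKM in the combination and 11.8 FPKM in DMSO (limma adjusted p = 0.308). PSMC6 also stood lower in the combination than in SD70 alone, with a ratio of 0.915 (0.842 to 0.994), and was the only one of the 31 genes whose counting interval lay below 1 there. On the opposite strand, NRDE2 overlaps 75.8% of the exon bases of PSMC1 and FTSJ3 overlaps 19.5% of those of PSMC5. Opposite-strand genes also overlap 30.7% of the exon bases of PSMD7, 17.2% of those of ADRM1, 10.8% of those of PSMD1 and under 10% of those of PSMD6, PSMD11, PSMD13 and PSMD14. Whether the counting used strand is not given in the sources used here, so the levels of these genes are uncertain. Pseudogenes named after PSMC1 held 21 reads in SD70, 43 reads in MI-503, 40 reads in the combination and 82 reads in DMSO, and 10 of the 33 genes have such copies.

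The non-ATPase subunits of the base held both the lowest and the highest fold of the set. PSMD1, a scaffold that binds ubiquitin receptors, had 11.5 FPKM in SD70, 28.0 FPKM in MI-503, 11.9 FPKM in the combination and 37.0 FPKM in DMSO. PSMD1 fell with SD70 by 1.39 ± 0.15 on the log2 scale (limma SE, adjusted p = 0.0224), and the ratio of SD70 to DMSO was 0.311 (95% counting interval 0.288 to 0.335). The MI-503 library was also below DMSO, with a ratio of 0.756 (0.716 to 0.799), the lowest among the 31 genes. PSMD1 lies on chromosome 2 from 231056864 to 231172827 (GRCh38), and its printed promoter holds none of the elements searched.

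PSMD4, a ubiquitin receptor that binds chains through its ubiquitin-interacting motifs, had 39.4 FPKM in SD70, 38.0 FPKM in MI-503, 37.0 FPKM in the combination and 39.8 FPKM in DMSO. The ratio of SD70 to DMSO was 0.991 (0.929 to 1.06) and the limma adjusted p was 0.885. The libraries with and without SD70 overlapped for PSMD4. PSMD4 lies on chromosome 1 from 151254703 to 151267479 (GRCh38).

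PSMD2, the other large scaffold and itself a ubiquitin receptor, had 33.1 FPKM in SD70, 56.3 FPKM in MI-503, 34.0 FPKM in the combination and 59.0 FPKM in DMSO. ADRM1, a ubiquitin receptor that also docks the deubiquitinase UCHL5, had 17.5 FPKM in SD70, 26.9 FPKM in MI-503, 18.8 FPKM in the combination and 33.1 FPKM in DMSO. Both fell with SD70, with limma adjusted p of 0.0227 for PSMD2 and 0.0332 for ADRM1. Of the ubiquitin receptors in this group, ADRM1 and PSMD2 fell and PSMD4 did not pass the test, and their difference was not tested.

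The lid covers the side of the base and cleaves chains from the substrate. PSMD14, the metalloprotease of the lid that does so, had 5.58 FPKM in SD70, 8.91 FPKM in MI-503, 6.32 FPKM in the combination and 11.0 FPKM in DMSO. PSMD14 fell with SD70 by 0.65 ± 0.15 on the log2 scale (limma SE, adjusted p = 0.0390). PSMD7, its partner in the deubiquitinating pair, had 13.1 FPKM in SD70, 13.8 FPKM in the combination and 23.5 FPKM in DMSO, and fell with SD70 (limma adjusted p = 0.0326). Its level in MI-503 was 0.851 of that in DMSO (0.775 to 0.933).

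PSMD12 and PSMD11 had the largest folds among the scaffold subunits of the lid. PSMD12 had 9.74 FPKM in SD70, 16.2 FPKM in MI-503, 11.0 FPKM in the combination and 21.2 FPKM in DMSO. PSMD11 had 7.66 FPKM in SD70, 12.9 FPKM in MI-503, 7.34 FPKM in the combination and 16.0 FPKM in DMSO. The ratio of SD70 to DMSO was 0.459 (0.422 to 0.499) for PSMD12 and 0.480 (0.442 to 0.521) for PSMD11, and both fell (limma adjusted p = 0.0338 and 0.0227).

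PSMD8 had 39.9 FPKM in SD70, 65.4 FPKM in MI-503, 42.1 FPKM in the combination and 70.9 FPKM in DMSO. PSMD3 had 23.2 FPKM in SD70, 37.3 FPKM in MI-503, 25.7 FPKM in the combination and 39.9 FPKM in DMSO. PSMD13 had 15.1 FPKM in SD70, 21.7 FPKM in MI-503, 16.2 FPKM in the combination and 24.3 FPKM in DMSO. All 3 fell with SD70, with limma adjusted p of 0.0243 for PSMD8, 0.0305 for PSMD3 and 0.0461 for PSMD13. PSMD6 had 7.03 FPKM in SD70, 9.17 FPKM in MI-503, 7.48 FPKM in the combination and 11.3 FPKM in DMSO, and was the one lid gene that did not pass (limma adjusted p = 0.0789). The lid therefore had 7 of 8 genes that fell, where 14.7% of all genes tested did, and all 8 were at least 1.5-fold lower in SD70 than in DMSO, where 18.8% of all genes tested were.

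POMP escorts the beta subunits into the half-built core and is degraded when the core matures. It had 41.9 FPKM in SD70, 74.6 FPKM in MI-503, 47.3 FPKM in the combination and 89.8 FPKM in DMSO. POMP fell with SD70 by 0.86 ± 0.15 on the log2 scale (limma SE, adjusted p = 0.0248), and the ratio of SD70 to DMSO was 0.467 (0.431 to 0.505). It lies on chromosome 13 from 28659104 to 28678925 (GRCh38). Together with PSMB2, PSMD1 and PSMD12 it was one of 4 genes at least 2-fold lower in SD70 than in DMSO on the log2(FPKM + 1) scale, where 6.37% of all genes tested were.

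**Figure D3:**
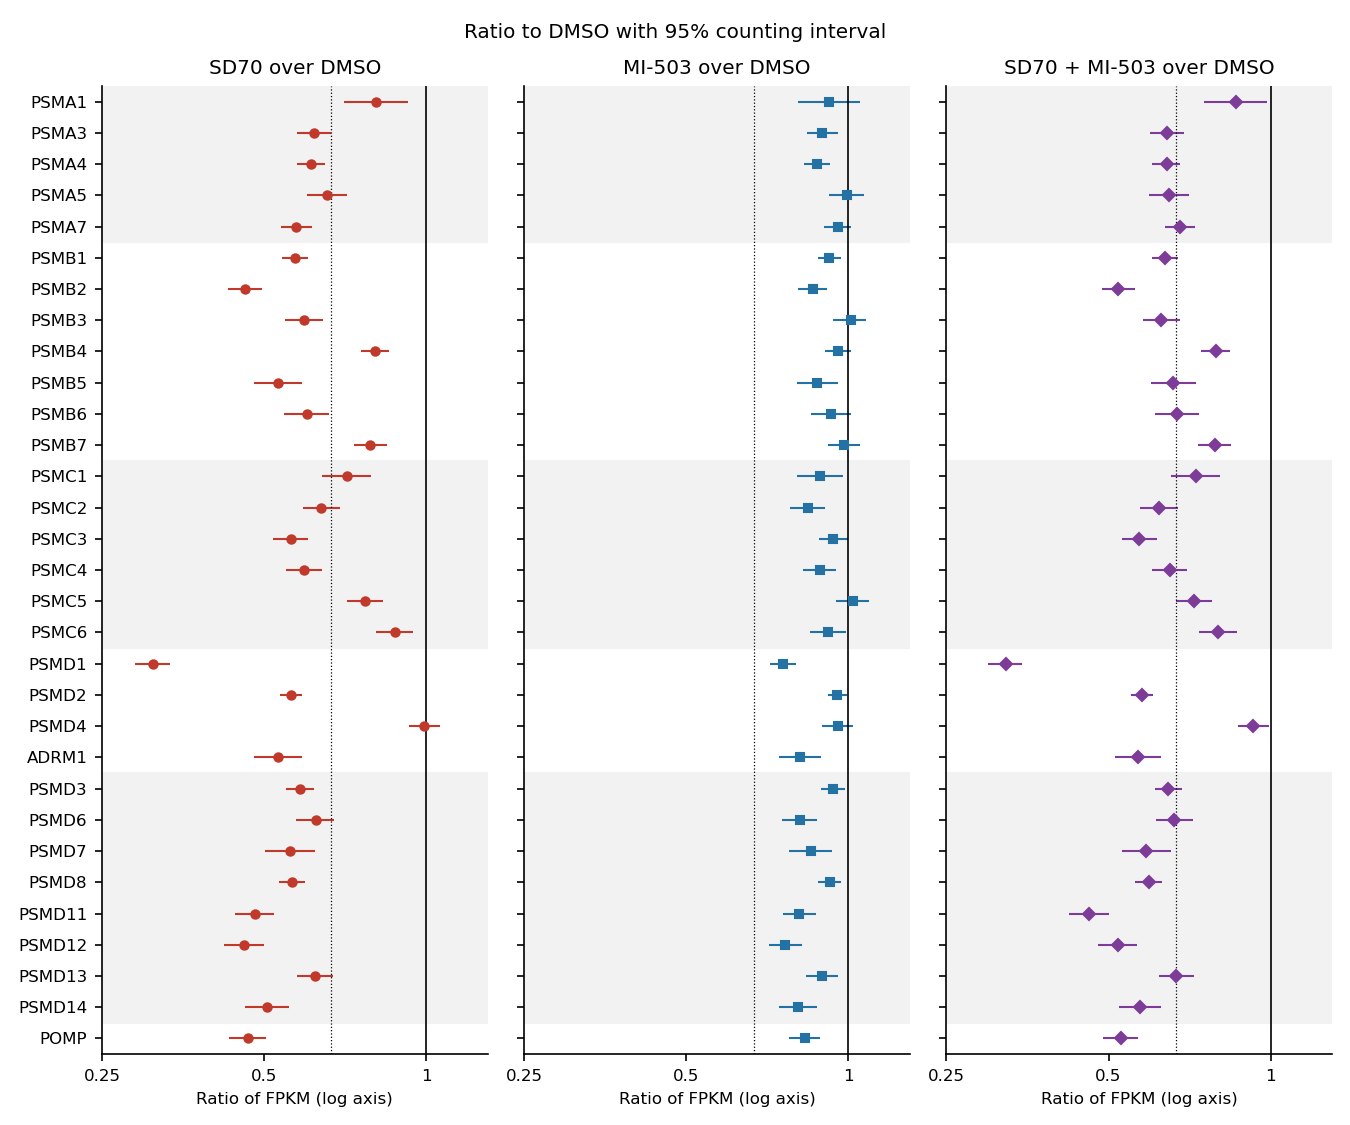
Ratio of FPKM to DMSO for each proteasome gene on a log axis, for SD70, MI-503 and SD70 + MI-503, with 95% counting intervals that cover counting error only, a solid line at 1 and a dotted line at a 1.5-fold lower level. SD70 intervals lie below 1 for 30 of the 31 genes tested, from 0.311 for PSMD1 to the interval of PSMD4, which holds 1. The share of all genes tested with such an interval was not computed.

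MI-503 alone was accompanied by small differences. None of the 31 genes, a count of 0, was at least 1.5-fold lower or higher in MI-503 than in DMSO, where 2.55% of all genes tested were that much lower and 4.37% that much higher. The median log2 fold was -0.16, with a range of -0.39 to 0.02, against -0.03 over all genes tested. The counting interval lay below 1 for 22 of the 31 genes and held 1 for 9. Such intervals narrow as reads rise, and these genes had 446 to 4788 reads in MI-503. The share of all genes tested with an interval off 1 was not computed for any single comparison. Such counts, here and below, therefore describe the 31 genes only. The ratios ran from 0.756 for PSMD1 to 1.02 for PSMC5. In the additive limma fit 0 of the 31 genes passed for MI-503, 0 had an unadjusted p under 0.05, and 0 of 12296 genes passed, although 401 had an unadjusted p under 0.05. This MI-503 term averages the fold against DMSO with that of the combination against SD70, whose medians were -0.16 and 0.07. The term had a median of -0.03 over the 31 genes, and it does not test MI-503 alone. With limma-voom on recovered reads 8 genes of the whole table passed for MI-503 and 0 of the 31.

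The combination followed SD70 more than MI-503 in the levels. At least 1.5-fold lower in the combination than in DMSO were 18 of the 31 genes, where 14.9% of all genes tested were, and 0 were as much higher, where 13.0% were. The median log2 fold was -0.61, with a range of -1.56 to -0.10, against -0.06 over all genes tested, and the counting interval lay below 1 for all 31. Against DMSO, 2 genes were at least 2-fold lower, PSMD1 and PSMD11, where 3.76% of all genes tested were. The 3 comparisons with DMSO share that library, so they are not independent of each other.

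SD70 added to MI-503 gave the same direction with smaller folds. In the combination against MI-503, 8 of the 31 genes were at least 1.5-fold lower, where 9.21% of all genes tested were, and 0 were as much higher, where 7.59% were. They were PSMB2, PSMB3, PSMC3, PSMD1, PSMD2, PSMD8, PSMD11 and POMP. The median log2 fold was -0.47 against -0.04 over all genes tested, and 29 of the 31 counting intervals lay below 1.

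MI-503 added to SD70 gave ratios above 1 in 23 of the 31 genes, where 6670 of the 12296 genes tested had such ratios. In the combination against SD70, 0 of the 31 genes were at least 1.5-fold lower and 0 higher, where 2.23% of all genes tested were lower and 2.53% higher. The median log2 fold was 0.07, with a range of -0.12 to 0.30, against 0.01 over all genes tested. With all libraries scaled to the same FPKM total it was 0.02, against -0.03 over all genes tested. The counting interval lay above 1 for 10 genes and below 1 for 1. The fold of MI-503 had opposite directions without and with SD70 in 23 of the 31 genes, where 56.5% of all genes tested did, and in 8 of them both intervals lay off 1, where 13.1% of all genes tested did. The departure from additivity, the fold of the combination against SD70 minus that of MI-503 against DMSO, had a median of 0.24 over the 31 genes against 0.04 over all genes tested. It ran from -0.11 for PSMC5 to 0.53 for PSMD12, and since each of these values comes from 4 single libraries it has no test. The departure was above 0 in 28 of the 31 genes and in 6763 of the 12296 genes tested. The additive fit takes this departure as error. Its SE and p-values for these genes therefore treat a shift mostly in one direction as error.

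The immunoproteasome replaces the 3 protease subunits of the core by PSMB9, PSMB8 and PSMB10, which interferon induces. PSMB9, which takes the place of PSMB6, had 7.55 FPKM in SD70, 5.59 FPKM in MI-503, 6.99 FPKM in the combination and 2.89 FPKM in DMSO. The ratio of SD70 to DMSO was 2.62 (2.14 to 3.22), but PSMB9 did not pass the test for SD70 (limma adjusted p = 0.0756). Against DMSO the ratio was also 1.94 (1.57 to 2.40) in MI-503 and 2.42 (1.97 to 2.98) in the combination. Its departure from additivity, which the fit takes as error, was -0.86. PSMB8, which takes the place of PSMB5, had 20.1 FPKM in SD70, 25.6 FPKM in MI-503, 21.0 FPKM in the combination and 19.6 FPKM in DMSO. PSMB10, which takes the place of PSMB7, had 21.4 FPKM in SD70, 26.2 FPKM in MI-503, 23.3 FPKM in the combination and 22.5 FPKM in DMSO. Another annotated gene on the same strand covers 60.0% of the coding bases of PSMB10, so its level is uncertain. PSMB8-AS1 overlaps 20.6% of the exon bases of PSMB8 on the opposite strand and 5.66% of those of PSMB9 on the same strand. PSMB8-AS1 held 134 reads in SD70, 127 reads in MI-503, 151 reads in the combination and 92 reads in DMSO. The levels of PSMB8 and PSMB9 are therefore uncertain too. PSMB8 and PSMB10 did not pass either (limma adjusted p = 0.543 and 0.510).

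Each immunoproteasome subunit was also set against its constitutive partner. The FPKM ratio of PSMB9 to PSMB6 was 0.243 in SD70, 0.116 in MI-503, 0.201 in the combination and 0.0558 in DMSO. Relative to DMSO this ratio was 4.36 times as high in SD70 (95% counting interval 3.50 to 5.44). The ratio of PSMB8 to PSMB5 was 0.954 in SD70, 0.738 in MI-503, 0.806 in the combination and 0.496 in DMSO, which is 1.92 times as high in SD70 as in DMSO (1.68 to 2.21). The ratio of PSMB10 to PSMB7 was 0.428 in SD70, 0.420 in MI-503, 0.467 in the combination and 0.354 in DMSO. For each pair all 3 treated libraries stood above DMSO, with intervals of the ratio of ratios above 1. The SD70 to DMSO ratio of the partners was itself 0.600 for PSMB6, 0.531 for PSMB5 and 0.788 for PSMB7. A gene at the same level in SD70 and DMSO would therefore also give a ratio of ratios above 1 in SD70. The SD70 to DMSO ratio was 1.02 (0.932 to 1.12) for PSMB8 and 0.952 (0.850 to 1.07) for PSMB10, against 2.62 for PSMB9.

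**Figure D4:**
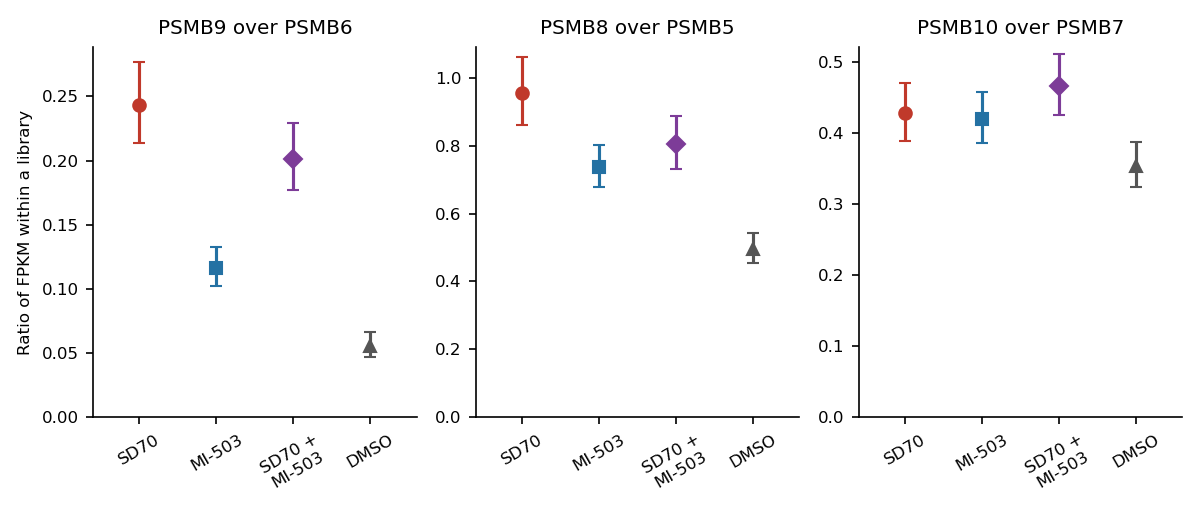
Ratio of FPKM of each immunoproteasome subunit to its constitutive partner, for SD70, MI-503, SD70 + MI-503 and DMSO, with 95% counting intervals. PSMB9 over PSMB6 is 0.243 in SD70 and 0.0558 in DMSO.

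The PA28 caps open the core without ubiquitin. PSME1 had 52.2 FPKM in SD70, 57.0 FPKM in MI-503, 51.4 FPKM in the combination and 53.7 FPKM in DMSO, and did not pass (limma adjusted p = 0.580). PSME2 had 17.5 FPKM in SD70, 26.9 FPKM in MI-503, 18.7 FPKM in the combination and 24.8 FPKM in DMSO, and fell with SD70 (limma adjusted p = 0.0418). The nuclear cap PSME3 had 21.2 FPKM in SD70, 42.3 FPKM in MI-503, 23.8 FPKM in the combination and 49.6 FPKM in DMSO. PSME3 fell with SD70 (limma adjusted p = 0.0224), with a ratio of SD70 to DMSO of 0.427 (0.403 to 0.452), while the activator PSME4 and the inhibitor PSMF1 did not pass (0.0696 and 0.233). The testis and thymus core subunits PSMA8 and PSMB11 were at 0 in every library.

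Assembly chaperones build the rings in order. PSMG1, which starts the alpha ring, had 9.10 FPKM in SD70, 17.2 FPKM in MI-503, 10.5 FPKM in the combination and 24.9 FPKM in DMSO. It fell with SD70 by 1.01 ± 0.19 on the log2 scale (limma SE, adjusted p = 0.0287) and was 1 of 7 chaperones tested that fell, a share close to the 14.7% of all genes tested. PSMG3 and PSMG4 were next in size, with log2 folds of SD70 against DMSO of -0.67 and -0.60, and did not pass (limma adjusted p = 0.0796 and 0.0821). At least 1.5-fold lower in SD70 than in DMSO were 3 of the 7 chaperones, where 18.8% of all genes tested were. As much higher were 0 of them, where 14.6% of all genes tested were. PSMD9 was below the minimum, with at most 0.927 FPKM, and 68.3% of its coding bases lie under another gene of the same strand. The small lid subunit SEM1 had 2.44 FPKM in SD70, 3.42 FPKM in MI-503, 2.27 FPKM in the combination and 3.57 FPKM in DMSO (limma adjusted p = 0.0870).

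Enzymes and shuttles that visit the 19S particle edit chains or carry substrates to it. UCHL5, the deubiquitinase docked by ADRM1, had 5.95 FPKM in SD70, 12.3 FPKM in MI-503, 6.72 FPKM in the combination and 14.4 FPKM in DMSO. UCHL5 fell with SD70 (limma adjusted p = 0.0224), as did the deubiquitinase USP14 (0.0385) and the ligase UBE3C (0.0434). The shuttle UBQLN4 had a log2 fold of -0.88 in SD70 against DMSO and did not pass (limma adjusted p = 0.0525). So 3 of the 12 genes in this group fell and 0 rose, where 14.7% of all genes tested fell and 7.86% rose. At least 1.5-fold lower in SD70 than in DMSO were 6 of the 12, where 18.8% of all genes tested were. As much higher were 0 of them, where 14.6% of all genes tested were.

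UBB encodes a chain of ubiquitin repeats, RPS27A encodes ubiquitin fused to a ribosomal protein, and UBA1 and UBA6 are the enzymes that activate ubiquitin. UBB had 107 FPKM in SD70, 136 FPKM in MI-503, 107 FPKM in the combination and 138 FPKM in DMSO. Both libraries with SD70 lay below both others for UBB, with a log2 fold of SD70 against DMSO of -0.36. That log2 fold was -0.01 for RPS27A, -0.31 for UBA1 and -0.38 for UBA6. None of these 4 genes passed, a count of 0, with limma adjusted p from 0.0612 to 0.976 and 2 of them at an unadjusted p under 0.05.

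Proteasome genes are known to be driven by NFE2L1, which NGLY1 and DDI2 process, by NFE2L2, and by NF-Y. NFE2L1 had 19.6 FPKM in SD70, 19.4 FPKM in MI-503, 20.7 FPKM in the combination and 21.3 FPKM in DMSO, and NFE2L2 had 12.8 FPKM in SD70, 10.9 FPKM in MI-503, 12.5 FPKM in the combination and 14.3 FPKM in DMSO. Neither passed (limma adjusted p = 0.946 and 0.941). NFYA, the DNA-binding subunit of NF-Y, had 12.7 FPKM in SD70, 20.3 FPKM in MI-503, 14.8 FPKM in the combination and 23.4 FPKM in DMSO, and fell with SD70 (limma adjusted p = 0.0402). It was 1 of 10 regulators tested that fell, a share no larger than the 14.7% of all genes tested, and 0 rose. The other SD70 to DMSO log2 folds were -0.76 for NFYB, -0.18 for NFYC, -0.53 for DDI2, 0.03 for NGLY1, 0.33 for MAFG, -0.39 for MAFK and 0.47 for the repressor BACH1. MAFF was below the minimum, at 1.19 FPKM in SD70, 0.570 FPKM in MI-503, 0.841 FPKM in the combination and 0.660 FPKM in DMSO. These are RNA levels, and the processing and abundance of the proteins were not measured.

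**Figure D5:**
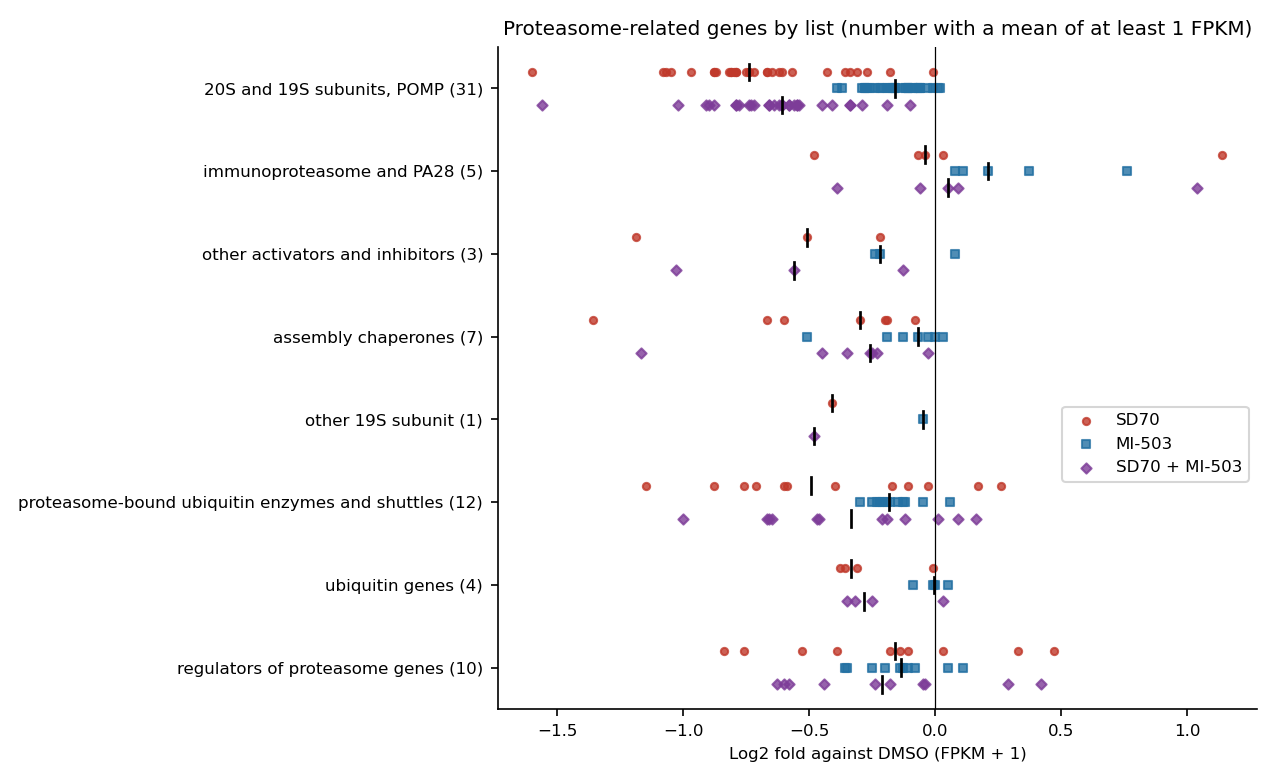
Log2 fold against DMSO on the log2(FPKM + 1) scale for the proteasome genes and 7 related lists, with 1 point per gene for SD70, MI-503 and SD70 + MI-503 and a black bar at each list's median. The proteasome genes have a median of -0.74 for SD70, and PSMB9 is the point at 1.14.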

How the data were processed

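RNA of 4 MOLM13 libraries was analysed, 1 per treatment label. The authors deposited 1 table per library, whose values are read here as FPKM from the values themselves: multiplied by GENCODE release 29 exon lengths they gave whole reads within 0.01 of a read for 100% of values. BWA, Bowtie and hg38 are named in the submitters' processing notes. The counter, its strand setting and the doses are not given in the sources used here. Genes averaging 1 FPKM or more were compared on log2(FPKM + 1). Ratios of FPKM carry exact Clopper-Pearson 95% intervals on the recovered reads (a normal approximation on the log scale for ratios of ratios). PCR copies are not told apart without molecular identifiers, so reads are not independent molecules and intervals cover counting error only and compare libraries. limma 3.58.1 in R 4.3.3 fitted SD70 and MI-503 terms with a trended variance, 2-sided, with Benjamini-Hochberg adjustment over 12296 genes and a threshold of 0.05, and was tested on simulated data. The simulated libraries were additive by construction, so they cannot test the additive assumption. With 1 library per group, p-values rest on the additive assumption. Python 3.11.15 with pandas 2.3.3, numpy 2.4.6 and scipy 1.17.1 did the rest, and matplotlib 3.10.9 drew the figures. Every proteasome gene is given. From the other lists, the text names the immunoproteasome, ubiquitin and regulator genes (some ubiquitin genes are not reported here) and up to 4 genes a list with the largest folds against DMSO. The proteasome genes and lists were chosen with earlier results of these data known. Alternatives varied the pseudocount, filter, scaling, fold size, trend and exon overlap.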

Additional observations from a re-analysis of the deposited data

Results flagged for a closer look

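In 23 of the 31 proteasome genes tested, MI-503 was on opposite sides of 1 without and with SD70, as in 56.5% of all genes tested. In all of these but PSMC5, where the directions were the other way round, it stood lower than DMSO on its own and higher than SD70 when added to it. For 8 of these genes both 95% counting intervals lay off 1, as in 13.1% of all genes tested, and they are given here because the direction differed between the backgrounds. PSMB1 had a ratio of 0.922 (0.877 to 0.970) for MI-503 over DMSO and 1.11 (1.05 to 1.19) for SD70 + MI-503 over SD70. PSMB2 had a ratio of 0.858 (0.807 to 0.911) for MI-503 over DMSO and 1.13 (1.04 to 1.23) for SD70 + MI-503 over SD70. PSMB5 had a ratio of 0.876 (0.802 to 0.957) for MI-503 over DMSO and 1.24 (1.11 to 1.39) for SD70 + MI-503 over SD70. PSMC4 had a ratio of 0.884 (0.825 to 0.948) for MI-503 over DMSO and 1.10 (1.01 to 1.19) for SD70 + MI-503 over SD70. PSMD3 had a ratio of 0.935 (0.888 to 0.984) for MI-503 over DMSO and 1.11 (1.04 to 1.18) for SD70 + MI-503 over SD70. PSMD12 had a ratio of 0.764 (0.711 to 0.820) for MI-503 over DMSO and 1.13 (1.03 to 1.25) for SD70 + MI-503 over SD70. PSMD14 had a ratio of 0.807 (0.743 to 0.876) for MI-503 over DMSO and 1.13 (1.02 to 1.26) for SD70 + MI-503 over SD70. POMP had a ratio of 0.831 (0.777 to 0.887) for MI-503 over DMSO and 1.13 (1.03 to 1.23) for SD70 + MI-503 over SD70. The difference between the backgrounds was not tested, since each value compares single libraries, and the intervals cover counting error only. With FPKM totals made equal, 20 of the 31 genes had opposite directions, as did 54.5% of all genes tested. Both intervals then lay off 1 for 5 of the 31 genes and for 12.4% of all genes tested.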

How the results depend on the processing

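Of 122 alternative values for counts and medians over the proteasome genes, 113 stayed within the limits set, 9 moved and 0 reversed. A count stayed if at most 1.5-fold off, and a median if its shift was within the typical half-width of a counting interval. By this limit the count lower in the combination than in DMSO stayed, at 12 with a pseudocount of 5 against 18. Counts of 0 that remained 0 are also among those that stayed. The median log2 fold of SD70 against DMSO was -0.63 with libraries scaled to the same read total. At 2-fold, the count of proteasome genes lower was 4 for SD70 against DMSO, 2 for the combination against DMSO and 1 for the combination against MI-503, and with a pseudocount of 5 it was 5 for the combination against MI-503. The count with MI-503 in opposite directions and both intervals off 1 was 5 with the same FPKM total, an alternative added after seeing the data. No alternative was run for single genes. The count past the additive limma fit for SD70 was 15 with the same FPKM total, 0 without a filter and 0 without the trend, with smallest adjusted p of 0.277 without a filter and 0.0514 without the trend, and 26 by limma-voom on recovered reads, which called 4630 genes in all. The cause of these losses was not tested. Of all genes at least 1.5-fold off, the share higher in SD70 than in DMSO was 43.6%, 53.7% with FPKM totals made equal and 54.2% with read totals made equal, and for the combination against MI-503 it was 45.2%, 57.7% and 55.0%. Scaling moved the median of all genes by at most 0.10 on the log2 scale. Among the 21 proteasome genes tested whose exons overlap no other gene, a choice made after seeing the data, 16 were at least 1.5-fold lower in SD70 than in DMSO. The share over all genes tested, overlapping or not, was 18.8%. No library could be left out, since each group has 1. No paired analysis was possible because each group has 1 library, whose number only names it.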

Other observations

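Other large complexes were set beside the proteasome as lists. The CCT chaperonin, which folds actin and tubulin, had 7 of 8 genes that fell with SD70 by the limma fit, where 14.7% of all genes tested did, and a median log2 fold of -1.05 in SD70 against DMSO, where that of all genes tested was -0.07. CCT5 had 36.6 FPKM in SD70, 73.5 FPKM in MI-503, 45.3 FPKM in the combination and 86.3 FPKM in DMSO, and CCT8, named after its values were seen, had 153 FPKM in SD70, 161 FPKM in MI-503, 169.5 FPKM in the combination and 174 FPKM in DMSO and did not pass (limma adjusted p = 0.741). The COP9 signalosome, whose architecture resembles that of the lid, had 2 of 9 genes that fell, GPS1 and COPS8 (limma adjusted p = 0.0356 and 0.0322), and a median log2 fold of -0.35. COPS7A had the largest fold of the signalosome genes, -0.63 on the log2 scale, and did not pass (limma adjusted p = 0.0868). Of 8 genes of the p97 pathway, which extracts ubiquitylated proteins, VCP alone fell (limma adjusted p = 0.0252), and both this share and that of the signalosome are to be read against the 14.7% of all genes tested. VCP had 39.4 FPKM in SD70, 64.6 FPKM in MI-503, 41.6 FPKM in the combination and 79.0 FPKM in DMSO. Whether these lists differed from the proteasome was not tested.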
